A study of Mus musculus with 20 samples.

Results

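The comparison described here sets 4 Cse-/- livers from the no-Cys diet (av05 to av08) against 3 Cse-/- livers from the no-Trp diet (av14 to av16), 7 of the 20 livers in the table of counts that have a group. The others are 7 Cse+/- livers on these diets, 4 Cse-/- livers on the no-Trp diet with BSO (buthionine sulfoximine, an inhibitor of glutathione synthesis) and 2 Cse+/- livers on the control diet, and all 20 entered the estimate of the spread between livers. Cse, listed in the counts as *Cth*, encodes cystathionine γ-lyase, the enzyme that releases cysteine from cystathionine, so that mice without it depend on dietary cysteine. Both groups lacked the same gene and both diets lacked an amino acid that these mice cannot make, so the comparison asks what a missing cysteine does to liver mRNA that a missing tryptophan does not. Both diets shared one defined amino acid formula that lacked either cysteine or tryptophan, with the rest of the amino acids scaled up to make good the loss.

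The Cse-/- mice were of a mixed 129/C57BL/6 background, male, and at least 9 weeks old at the start of the diets. Food was restricted throughout: mice received the control diet under calorie restriction, then the deficient diet, also calorie restricted, and livers were taken 2 days after that shift. The same pair of diets in mice that keep cystathionine γ-lyase (no-Cys, n = 4, and no-Trp, n = 3) was measured as well. These mice can make cysteine but not tryptophan, so their difference between the diets sets a shortage that they can make good against one that they cannot, and an interaction with genotype holds both. The sample labels call these mice wild type, whereas the list of mice given with the study calls them heterozygous, and they are written Cse+/- here. Mice are named by the numbers of that list, which head the columns of counts. The labels do not hold these numbers, so the group of each column rests on that list, whose group sizes equal those of the labels. No liver of a Cse-/- mouse on a complete diet was analysed here, so each value is a difference between deficient diets and not a change from a complete diet.

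Lack of any essential amino acid leaves tRNAs uncharged, which activates the kinase GCN2, phosphorylates eIF2α and raises translation of the transcription factor ATF4. ATF4 and its partners drive the integrated stress response (ISR), a programme of amino acid synthesis, transport and tRNA charging. Cysteine has further uses: it limits the synthesis of glutathione (GSH), the main thiol of the hepatocyte, and it provides the thiol of coenzyme A. When thiols are oxidized or consumed, the repressor KEAP1 releases the transcription factor NRF2, which drives the oxidative stress response (OSR), including glutathione S-transferases and enzymes that reduce quinones and peroxides.

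Reads on genes numbered 12664830 to 15436551 per library on the no-Cys diet and 16088508 to 23246393 on the no-Trp diet, so the no-Trp livers were the more deeply sequenced. All levels below are in CPM (counts per library, scaled with edgeR's TMM factors), listed in the order av05, av06, av07, av08 for the no-Cys diet and av14, av15, av16 for the no-Trp diet. A value after ± is the standard error of a log2 fold change, no-Cys over no-Trp. *Cth* (chr3:157894248-157925077 of GRCm38) stood at 6.37, 7.04, 6.83 and 13.3 CPM on the no-Cys diet and at 13.9, 14.4 and 10.4 CPM on the no-Trp diet, against 121 to 332 CPM and 88.4 to 159.6 CPM in the Cse+/- livers on these diets. All 7 libraries were thus below every Cse+/- library, and the diets did not differ by test in what was left of it (log2 fold change −0.63 ± 0.33, edgeR adjusted p = 0.237). In the no-Cys group av08 stood apart in the second principal component of the 7 livers (a score of 28.6, against −27.7 to 6.86 in the other no-Cys livers) and in many of the genes described below. On the no-Trp diet av14 carried genes of adipose tissue (*Ucp1* at 3.02 CPM, *Cidea* at 2.63 CPM), which were at or below 0.124 CPM in the other 6 livers. Among the Cse+/- livers av17 of the no-Trp diet carried adipose RNA too: the adipocyte gene *Cfd* was at 26.3 CPM there, at 11.1 CPM in av14 and at or below 0.708 CPM in the other livers of the 4 groups.

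Of 14759 genes with enough counts for a test, 746 were higher on the no-Cys than on the no-Trp diet in Cse-/- livers (5.05% of the genes tested) and 789 were lower (5.35%), at an edgeR adjusted p below 0.05. Such genes are called higher or lower in what follows. The differences were mostly small: 126 of the called genes were more than 2-fold higher and 176 more than 2-fold lower, and the median log2 fold change of all genes was −0.0081. CPM did not overlap between the groups for 1323 of the 1535 called genes and for 2957 (20%) of all genes tested. The counts depend on single livers. Leaving av14 out gave 314 genes higher and 369 lower, the fewest of these. The counts were 440 and 418 for av05, 426 and 424 for av06, 508 and 470 for av07 and 466 and 575 for av16. Leaving av08 out gave 857 and 998, the most. With only these 7 livers in the model, 248 were higher and 273 lower, 495 of them in the main set with the same sign.

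In Cse+/- livers the same pair of diets gave 683 genes higher (4.63%) and 503 lower (3.41%). These livers are other mice than the Cse-/- livers, so the calls of the genotypes are separate measurements. Both genotypes shared 208 called genes, 13.6% of those called in Cse-/- and 17.5% of those called in Cse+/- livers, of which 165 had the same direction and 43 the opposite. Whether a gene's difference between the diets itself differed between the genotypes was tested as an interaction, which called 246 genes higher (1.67%) and 397 lower (2.69%). Of the 1535 genes called in Cse-/- livers, 352 (22.9%) also had a called interaction. The counts of the Cse+/- comparison depend on single livers too: 341 genes were higher and 256 lower without av02, 442 and 288 without av03, 361 and 282 without av19, 332 and 322 without av20, and 485 and 333 without av17. Those of the interaction were 134 and 229 without av02, rose to 476 and 674 when av08 was left out, and fell to 193 and 249 for av05, 154 and 261 for av06, 149 and 201 for av07 and 160 and 264 for av17.

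**Figure D1:**
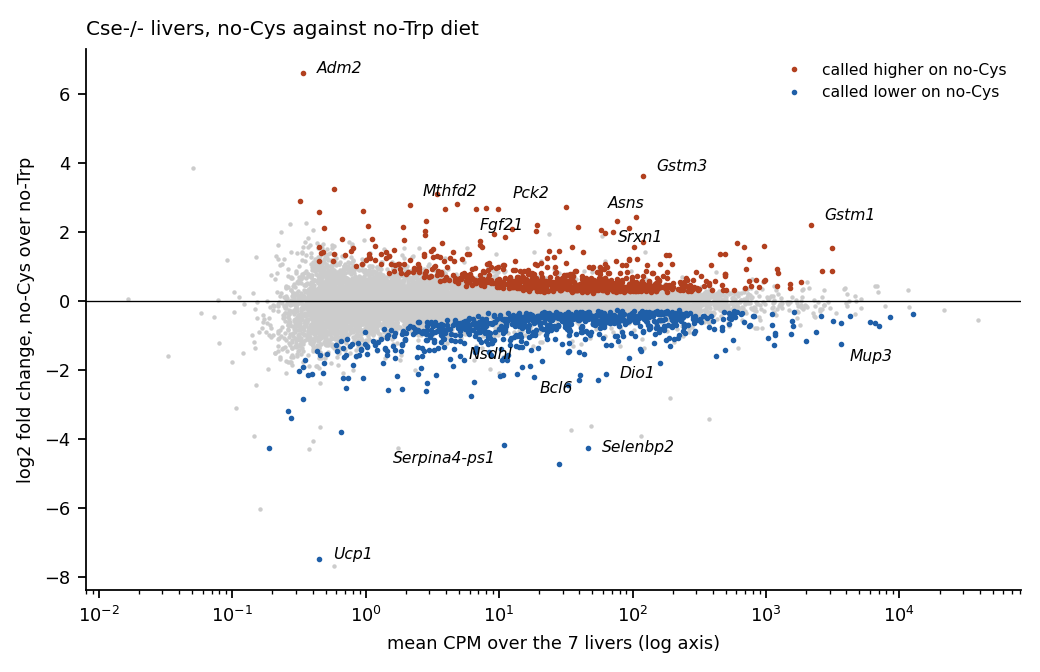
Each point is 1 of 14759 genes, by its mean CPM over the 7 Cse-/- livers (horizontal log axis) and its log2 fold change, no-Cys over no-Trp (vertical axis). The 746 genes called higher are red and the 789 called lower are blue; *Gstm3*, *Pck2* and *Gstm1* stand out above and *Selenbp2* and *Serpina4-ps1* below.

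Gene lists show where these differences lie. All 8 OSR genes and 14 of 20 cytosolic aminoacyl-tRNA synthetases were called higher, 11 of 20 cholesterol synthesis enzymes and 11 of 23 genes of the growth hormone axis were called lower, against 5.05% and 5.35% of all genes tested. In the plot of list members, the medians in Cse-/- livers run from 2.09 (OSR) to −0.77 (cholesterol synthesis). In Cse+/- livers the medians of the same lists were 0.58 and 1.06.

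**Figure D2:**
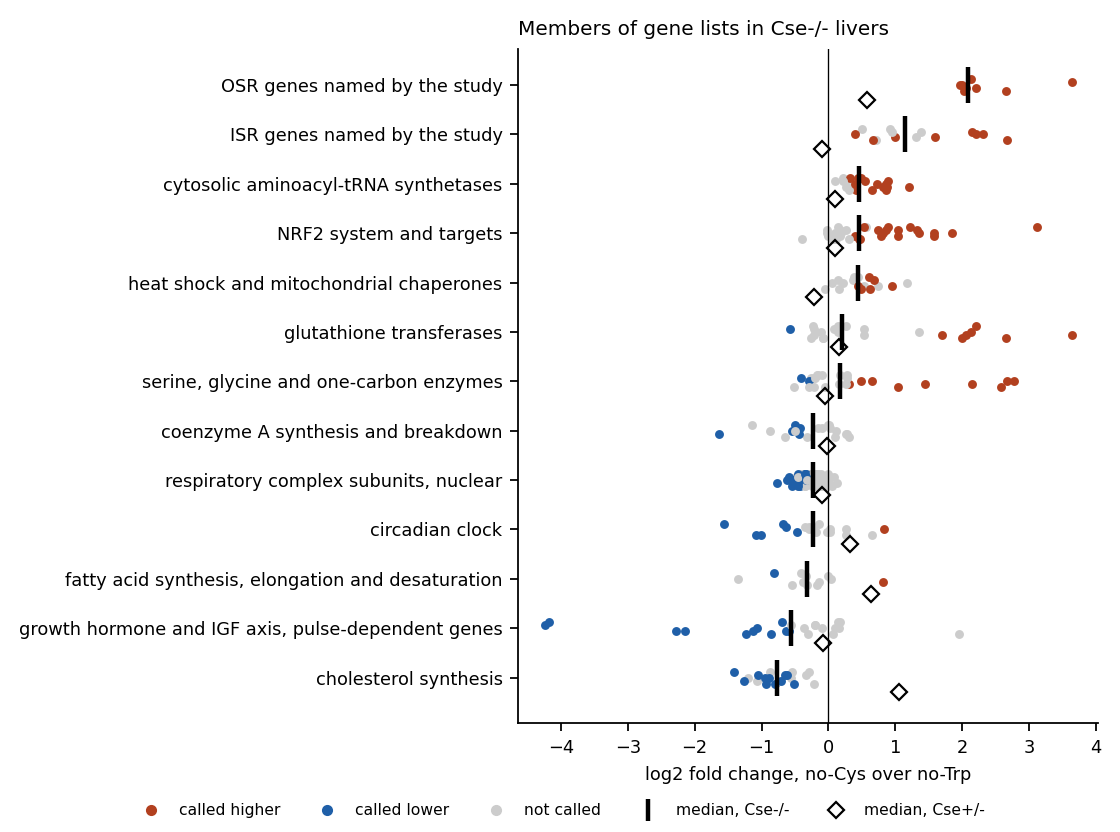
Log2 fold changes, no-Cys over no-Trp, of the members of 13 gene lists in Cse-/- livers (circles; red called higher, blue called lower, grey not called), with the list's median in Cse-/- (bar) and in Cse+/- livers (open diamond). The OSR members lie at 1.96 or above, and the cholesterol synthesis members all lie below 0 in Cse-/- livers while their Cse+/- median is 1.06.

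The OSR list had the highest median of all lists. *Srxn1* (chr2:152105516-152111376), which encodes sulfiredoxin, an enzyme that repairs overoxidized peroxiredoxins, was at 84.8, 81.5, 107 and 91.0 CPM on the no-Cys diet and 21.9, 25.5 and 22.9 CPM on the no-Trp diet. The 4 no-Cys livers lay close together and all were more than 3 times the highest no-Trp liver (log2 fold change 1.96 ± 0.15, edgeR adjusted p = 5.18e-07). *Nqo1*, the NAD(P)H quinone reductase, stood at 21.1, 32.9, 32.9 and 24.3 against 5.74, 6.30 and 8.37 CPM (log2 fold change 2.03 ± 0.26, edgeR adjusted p = 0.000137), again with no overlap. The study itself named these 8 genes in livers of this series, so their common direction is no independent evidence. None of the 8 lost its call in any alternative, including without av08 and av14, where their median was 2.28.

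The other 6 OSR genes are glutathione S-transferases, which couple GSH to electrophiles. *Gstm1* was by far the most abundant, at 3061, 3834, 3642 and 2496 CPM against 746, 523 and 843 CPM (log2 fold change 2.21 ± 0.27, edgeR adjusted p = 7.74e-05). *Gstm3* showed the largest log2 fold change of the list, with 148, 301, 231 and 108 CPM on the no-Cys and 12.5, 10.3 and 24.4 CPM on the no-Trp diet (log2 fold change 3.64 ± 0.41, edgeR adjusted p = 3.15e-05). *Gstm2* (1.99), *Gstm4* (2.12), *Gsta1* (2.66) and *Gsta2* (2.06) were called too, and in each of them the lowest no-Cys liver lay above the highest no-Trp liver. Of the transferases outside the study's list, *Gstp1* was called higher, at 695, 1016, 998 and 735 against 301, 170.0 and 328 CPM (log2 fold change 1.69 ± 0.28, edgeR adjusted p = 0.00114). So was the pseudogene *Gstm2-ps1* (log2 fold change 2.43 ± 0.24, edgeR adjusted p = 9.48e-06). Of 22 transferase genes tested, 7 (31.8%, against 5.05% of all genes) were called higher and 1 (4.55%, against 5.35%), *Gstt1*, lower (log2 fold change −0.57 ± 0.18, edgeR adjusted p = 0.0472), which lost its call without any liver but av08. The 7 higher are the study's 6 OSR transferases and *Gstp1*, so this share mostly repeats the study's own choice. Transferase genes resemble each other closely, so part of their reads may be lost or shared. The share of stretches of 61 bases that also occur in another gene was 87.9% for *Gsta1*, 43.5% for *Gsta2*, 38.2% for *Gstm2-ps1*, 31.7% for *Gstp1*, 25.7% for *Gstm3* and 15.2% for *Gstm1*.

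**Figure D3:**
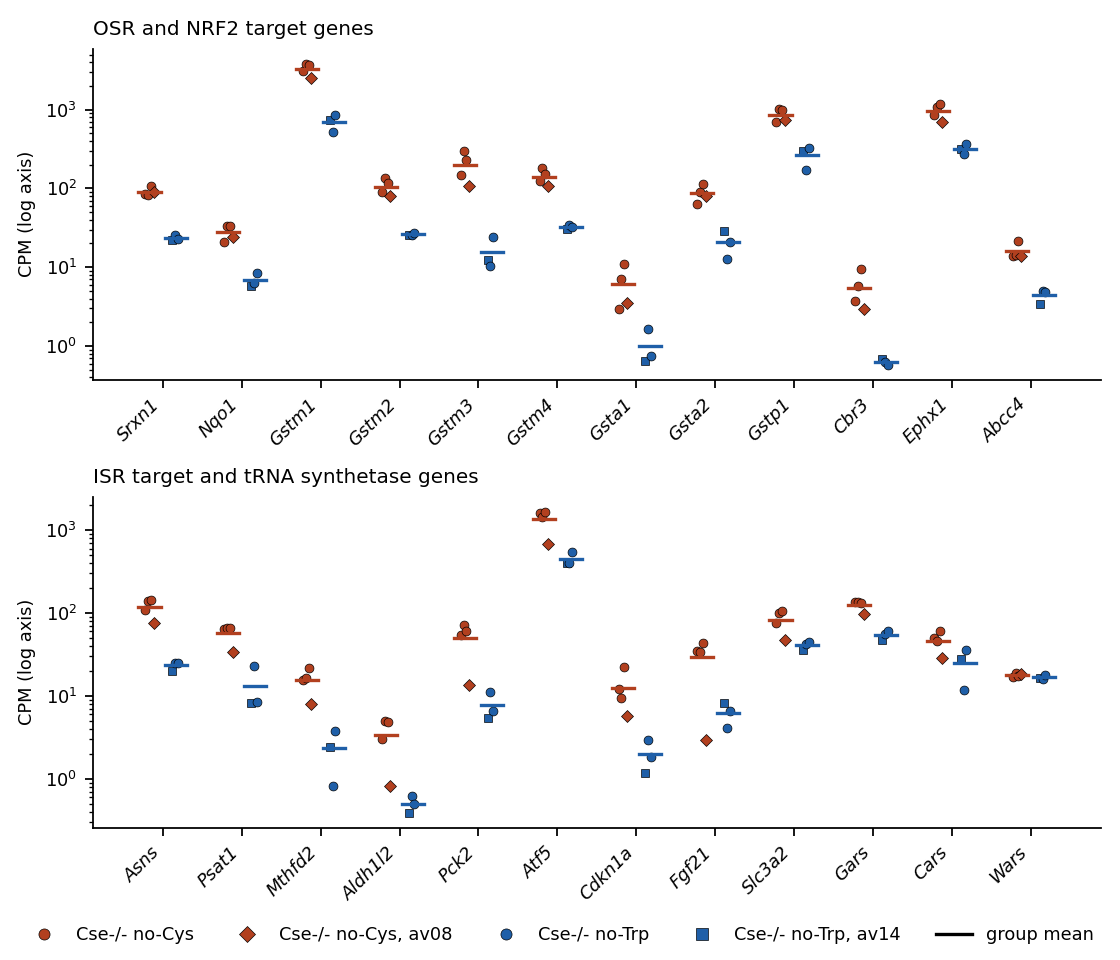
CPM (log axis) in each of the 7 Cse-/- livers for OSR and NRF2 target genes (top) and for ISR target and tRNA synthetase genes (bottom), no-Cys in red and no-Trp in blue, with a bar at the group mean. *Cdkn1a* in the bottom panel is from the list of p53 and growth arrest genes and from no ISR list. The top genes do not overlap between the diets, whereas in the bottom panel av08 (diamond) lies below the other no-Cys livers for *Asns*, *Pck2* and *Psat1* and below the no-Trp livers for *Fgf21*.

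Beyond the study's list, 18 of 34 tested genes of the NRF2 system (52.9%) were called higher, against 5.05% of all genes tested, and none was called lower by edgeR (at an unadjusted p below 0.05 *Nfe2l2* was lower). Leaving out single livers gave between 13 and 18. *Cbr3*, a carbonyl reductase, had the largest difference, 3.72, 5.72, 9.62 and 2.95 against 0.691, 0.623 and 0.58 CPM (log2 fold change 3.11 ± 0.40, edgeR adjusted p = 0.000128). *Ephx1*, the microsomal epoxide hydrolase, was at 864, 1086, 1179.7 and 694 against 318, 276 and 365 CPM (log2 fold change 1.58 ± 0.20, edgeR adjusted p = 0.000109). The efflux transporter gene *Abcc4* (log2 fold change 1.85 ± 0.27, edgeR adjusted p = 0.000416), *Htatip2* (1.57 ± 0.23, adjusted p = 0.000432), the aldehyde oxidase gene *Aox1* (1.22 ± 0.19, adjusted p = 0.000657) and *Cbr1* (1.33 ± 0.26, adjusted p = 0.00375) were called as well. *Ugdh*, which makes UDP-glucuronate for conjugation, was at 185, 185, 233 and 416 against 117, 68.4 and 115 CPM (log2 fold change 1.35 ± 0.25, edgeR adjusted p = 0.00253), with av08 the highest liver here. *Sqstm1*, the autophagy receptor p62 that binds KEAP1, was at 602, 599, 640.3 and 524 against 339, 357 and 367 CPM (log2 fold change 0.74 ± 0.098, edgeR adjusted p = 0.000165). The iron storage genes *Fth1* (3745, 4563, 4262 and 3064 against 2164, 2119 and 2052 CPM, adjusted p = 0.000612) and *Ftl1* (3097 to 3599 against 1732 to 1842 CPM, adjusted p = 0.000657) were higher without overlap, although 47.1% of the 61-base stretches of *Ftl1* are shared with other genes.

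Not every NRF2 target followed. *Hmox1*, the heme oxygenase, showed a log2 fold change of 0.056 (adjusted p = 0.884) and *Osgin1* of 0.18 (adjusted p = 0.755). The mRNA of NRF2 itself, *Nfe2l2*, was at 54.4, 53.5, 66.0 and 56.4 CPM on the no-Cys diet and 82.8, 62.5 and 80.8 CPM on the no-Trp diet (log2 fold change −0.39 ± 0.13, edgeR adjusted p = 0.0534), and that of KEAP1 differed by 0.12 (adjusted p = 0.349). The interaction with genotype was called for 13 of the 34 genes in the higher and for 1 in the lower direction, against 1.67% and 2.69% of all genes tested. For *Srxn1*, of the OSR list, it was 1.58 ± 0.20 (edgeR adjusted p = 0.000511), with 21.5, 25.3, 30.4 and 29.4 CPM on the no-Cys and 24.1, 16.9 and 20.9 CPM on the no-Trp diet in Cse+/- livers.

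NRF2 acts through the antioxidant response element, whose core was searched as TGACNNNGC on both strands from 250 bases before to 50 bases after the start site of RefSeq (GRCm38.p6). It is present in 11 of the 30 promoters found for the 34 NRF2 genes (36.7%) and in 13.2% of all 19107 promoters of that length. Among the 18 NRF2 genes called higher it is in 5 of the 16 promoters found (31.2%), so no larger a share than in the whole list. Over all genes called higher it is in 19.1%, against 14.6% of the genes tested. The 250 bases before the start of *Srxn1*, *Abcc4* and *Ugdh* are shown because these are called OSR or NRF2 genes with a match close to the start. In *Srxn1* (chr2:152105274-152105523, plus strand) the capitals mark an extended form of the element, TGANTCAGC, which fits the core too where its N is C and which was added to the search after this sequence was seen. It is in 1.11% of all promoters, and among the 8 OSR genes the core and the extended form are each in 1 promoter (12.5%). In *Abcc4* (chr14:118706220-118706469, minus strand) and *Ugdh* (chr5:65435843-65436092, minus strand) the capitals mark the core, on the gene's own strand or the other.
Srxn1: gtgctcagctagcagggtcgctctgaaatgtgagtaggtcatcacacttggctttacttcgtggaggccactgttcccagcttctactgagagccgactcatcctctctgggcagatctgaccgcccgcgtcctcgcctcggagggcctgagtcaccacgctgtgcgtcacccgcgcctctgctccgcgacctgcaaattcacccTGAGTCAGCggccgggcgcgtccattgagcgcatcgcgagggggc
Abcc4: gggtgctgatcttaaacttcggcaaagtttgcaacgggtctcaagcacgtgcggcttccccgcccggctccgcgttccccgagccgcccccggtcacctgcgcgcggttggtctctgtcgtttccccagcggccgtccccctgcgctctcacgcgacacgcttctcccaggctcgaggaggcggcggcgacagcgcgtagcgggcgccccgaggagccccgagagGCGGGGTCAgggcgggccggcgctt
Ugdh: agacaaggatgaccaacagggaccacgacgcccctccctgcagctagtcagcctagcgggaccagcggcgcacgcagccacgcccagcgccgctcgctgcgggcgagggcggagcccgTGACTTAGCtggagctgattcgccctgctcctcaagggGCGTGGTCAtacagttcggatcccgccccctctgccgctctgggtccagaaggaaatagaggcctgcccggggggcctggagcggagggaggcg
The match in *Srxn1* begins 45 bases before the start site, that in *Abcc4* 25 bases, and those in *Ugdh* 132 and 94 bases. A match describes the letters only, and binding of NRF2 was not measured here.

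Of the enzymes that make glutathione, the rate-limiting one did not pass the test. *Gclc* and *Gclm*, the catalytic and modifier subunits of the rate-limiting γ-glutamylcysteine ligase, stood at 255, 233, 293 and 289 against 187, 139 and 218 CPM (log2 fold change 0.56 ± 0.19, edgeR adjusted p = 0.0616) and 228, 244, 264 and 277 against 204, 178 and 232 CPM (log2 fold change 0.30 ± 0.11, edgeR adjusted p = 0.091). *Gss*, for the second step, was called at 76.6, 80.1, 90.9 and 80.1 against 62.0, 52.7 and 62.7 CPM (log2 fold change 0.47 ± 0.11, edgeR adjusted p = 0.00912). *Gsr*, which reduces oxidized glutathione, was at 96.0, 122, 134 and 108 against 68.5, 42.1 and 56.8 CPM (log2 fold change 1.04 ± 0.15, edgeR adjusted p = 0.000389). Of 15 genes of glutathione synthesis and breakdown, 4 were called higher (26.7%, against 5.05% of all genes tested; 2 without av06 or av16) and 1 lower (6.67%, near the 5.35% of all genes; 2 without av08 or av15). The one lower, the peroxidase gene *Gpx1*, was at 1200.4, 1217, 1318 and 1442 against 2369.6, 1513 and 1857 CPM (log2 fold change −0.56 ± 0.12, edgeR adjusted p = 0.0069) and lost its call without av14. The lipid peroxidase gene *Gpx4* was higher (log2 fold change 0.46 ± 0.11, edgeR adjusted p = 0.0138), a call lost without av06 or av16.

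Since both diets lack an amino acid, the comparison gives the difference in the level of ISR genes and not their response to either diet. Of the 14 genes the study names, 8 (57.1%, against 5.05% of all genes tested) were called higher on the no-Cys diet and none lower (edgeR), and all 14 were positive, with a median log2 fold change of 1.15. This list, too, was picked by the study and gives no independent evidence of direction. Asparagine synthetase, *Asns* (chr6:7675169-7693254), was at 108, 139.9, 143 and 75.8 against 20.2, 25.1 and 25.1 CPM (log2 fold change 2.31 ± 0.49, edgeR adjusted p = 0.00646). *Psat1*, of serine synthesis, was at 64.5, 66.4, 66.7 and 33.8 against 8.24, 23.3 and 8.37 CPM (log2 fold change 2.14 ± 0.33, edgeR adjusted p = 0.000612). *Mthfd2*, of mitochondrial folate metabolism, was at 15.7, 16.6, 21.5 and 8.04 against 2.42, 0.81 and 3.81 CPM (log2 fold change 2.67 ± 0.38, edgeR adjusted p = 0.000351). The lowest no-Cys liver was av08 in all of these, and in all of them it still lay above every no-Trp liver.

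Genes outside the study's list were called too. *Aldh1l2*, a mitochondrial folate dehydrogenase, was at 3.01, 4.99, 4.84 and 0.812 against 0.388, 0.623 and 0.497 CPM (log2 fold change 2.78 ± 0.48, edgeR adjusted p = 0.00146). *Pck2*, the mitochondrial PEP carboxykinase, was at 53.7, 71.4, 61.3 and 13.6 against 5.44, 11.0 and 6.55 CPM (log2 fold change 2.72 ± 0.37, edgeR adjusted p = 0.000215). *Phgdh*, for the entry step of serine synthesis, had 42 counts over the 4 no-Cys and 7 over the 3 no-Trp livers. Scaled to library size this is 6.31 times as many, with an exact 95% interval for counting alone from 2.81 to 16.6. Of its stretches of 61 bases 42.8% are shared with other genes, and its call was lost without av14 or av16. *Cdkn1a*, the cell cycle inhibitor p21, here in the list of p53 and growth arrest genes, stood at 12.3, 9.39, 22.5 and 5.76 against 1.17, 2.93 and 1.82 CPM (log2 fold change 2.70 ± 0.54, edgeR adjusted p = 0.00409). Of 26 genes of serine, glycine and one-carbon metabolism, 9 were called higher (34.6%, against 5.05% of all genes tested) and 2 lower (7.69%, near the 5.35% of all genes), which became 3 and 0 without av14, 4 and 2 without av16, 5 and 2 without av05 and 5 and 1 without av06 or av07. The glycine cleavage gene *Gldc* was among them, at 109.6, 112, 97.6 and 108 against 38.3, 64.5 and 52.6 CPM (log2 fold change 1.05 ± 0.24, edgeR adjusted p = 0.00973), and was not called without av14.

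The level of the ISR differed within the no-Cys group. *Fgf21*, a hepatokine gene and ISR target (chr7:45613886-45615490), was at 35.2, 34.2, 44.1 and 2.95 CPM on the no-Cys and 8.16, 4.05 and 6.59 CPM on the no-Trp diet, so av08 lay below all no-Trp livers and the other 3 far above them (log2 fold change 2.20 ± 0.64, edgeR adjusted p = 0.0341). Its call was lost when any liver other than av08 was left out. *Atf5* (1597, 1456, 1667 and 671 against 398, 398 and 541 CPM, log2 fold change 1.60 ± 0.26, edgeR adjusted p = 0.000757) and *Slc3a2*, a subunit of amino acid exchangers (75.1, 100.3, 105 and 46.7 against 36.0, 42.7 and 45.1 CPM, log2 fold change 0.99 ± 0.19, edgeR adjusted p = 0.0039), were also lowest in av08 within the no-Cys group. Without av08, 10 of the 14 genes were called, and 5 without av05, av06, av07 or av14. *Gdf15*, for another stress hormone, was at 12.9, 9.90, 12.9 and 6.05 against 10.4, 1.99 and 3.56 CPM (log2 fold change 0.95 ± 0.56, edgeR adjusted p = 0.295). *Chac1*, for a GSH-degrading enzyme, was at 11.4, 10.7, 24.5 and 4.80 against 6.30, 5.11 and 3.48 CPM (log2 fold change 1.38 ± 0.48, edgeR adjusted p = 0.0727), neither of which passed the threshold. *Adm2*, a hepatic peptide hormone gene, had 36 counts on the no-Cys and 0 on the no-Trp diet, at least 12.6-fold higher when the floor of 3 counts over the group is used, and its call was lost without av14.

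Among regulators, *Atf4* mRNA did not pass the test (119, 146, 161 and 90.3 against 137, 63.5 and 131 CPM, log2 fold change 0.22 ± 0.21, edgeR adjusted p = 0.543). *Ddit3* did not pass either (log2 fold change 0.49 ± 0.20, edgeR adjusted p = 0.116). *Trib3*, a feedback inhibitor, was barely called (log2 fold change 0.67 ± 0.21, edgeR adjusted p = 0.0488), a call lost without any liver but av08. *Eif4ebp1*, a repressor of cap-dependent translation, was at 117, 112, 134 and 88.4 against 57.2, 61.3 and 71.4 CPM (log2 fold change 0.83 ± 0.14, edgeR adjusted p = 0.000807) and kept its call throughout. Of 18 ISR regulators, *Atf5*, *Trib3* and *Eif4ebp1*, 3 in all, were called higher (16.7%, against 5.05% of all genes tested; 5 without av08). Both *Atf5* and *Trib3* are also among the 14 ISR genes picked by the study. In the lower direction 1 regulator was called (5.56%, near the 5.35% of all genes; none without av05, av06, av14 or av16 and 2 without av15). The interaction with genotype was called for 6 of the 14 ISR genes, all higher, against 1.67% of all genes tested. It was 3.50 ± 0.57 (edgeR adjusted p = 0.00221) for *Psat1* and 3.03 ± 0.69 (edgeR adjusted p = 0.0164) for *Chac1*, and the value of 1.51 ± 0.75 (edgeR adjusted p = 0.278) for *Asns* did not pass.

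All 20 cytosolic aminoacyl-tRNA synthetase genes had a positive log2 fold change (median 0.46) and 14 (70%, against 5.05% of all genes tested) were called higher. *Gars*, for glycyl-tRNA, was at 138, 135, 132 and 96.0 against 47.4, 55.5 and 59.9 CPM (log2 fold change 1.21 ± 0.12, edgeR adjusted p = 1.42e-05). *Vars* (69.1, 69.7, 66.8 and 64.1 against 32.5, 36.6 and 42.8 CPM, adjusted p = 0.000115), *Sars* (172, 162, 177 and 111 against 81.0, 75.1 and 100.2 CPM, adjusted p = 0.000616) and *Nars* (193, 217, 219.7 and 187 against 127, 98.4 and 145 CPM, adjusted p = 0.000612) were separated without overlap. The synthetases for the missing amino acids themselves were no firm calls. *Cars*, for cysteine, was at 49.8, 46.5, 60.1 and 28.8 against 27.5, 11.8 and 35.9 CPM (log2 fold change 0.88 ± 0.26, edgeR adjusted p = 0.0398), with av08 within the no-Trp range and a call lost without av05, av06, av07, av14 or av15. *Wars*, for tryptophan, was at 16.9, 19.1, 17.6 and 18.2 against 16.4, 16.2 and 17.9 CPM (log2 fold change 0.093 ± 0.15, edgeR adjusted p = 0.745), the smallest difference of the 20. With a liver left out, 10 to 15 of the 20 were called, and 8 when only the 7 livers were fitted.

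The amino acid response element bound by ATF4 and its partners was searched as TGATGNAA. It is present in 6 of the 13 promoters found for the 14 ISR genes (46.2%), in 5 of 12 found for the synthetases (41.7%) and in 3.66% of all promoters. It is in none of the 21 promoters found for the 26 genes of serine, glycine and one-carbon metabolism, and in 2.5% of those of all genes called higher against 2.28% of the genes tested. The same 250 bases of *Asns*, *Fgf21*, *Gars* and *Aars* are shown since they are ISR or synthetase genes with such a match, in capitals on either strand. They lie at chr6:7693210-7693459 (minus strand), chr7:45615491-45615740 (minus), chr6:55037751-55038000 (plus) and chr8:111033592-111033841 (plus).
Asns: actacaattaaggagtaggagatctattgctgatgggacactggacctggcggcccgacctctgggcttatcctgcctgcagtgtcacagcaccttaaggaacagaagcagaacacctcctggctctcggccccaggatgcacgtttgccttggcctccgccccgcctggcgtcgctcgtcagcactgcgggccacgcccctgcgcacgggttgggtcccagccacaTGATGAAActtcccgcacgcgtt
Fgf21: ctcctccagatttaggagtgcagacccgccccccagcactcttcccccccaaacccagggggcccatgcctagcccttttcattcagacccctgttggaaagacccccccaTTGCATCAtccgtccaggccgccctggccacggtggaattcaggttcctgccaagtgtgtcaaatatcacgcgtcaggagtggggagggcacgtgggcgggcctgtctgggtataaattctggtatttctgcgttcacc
Gars: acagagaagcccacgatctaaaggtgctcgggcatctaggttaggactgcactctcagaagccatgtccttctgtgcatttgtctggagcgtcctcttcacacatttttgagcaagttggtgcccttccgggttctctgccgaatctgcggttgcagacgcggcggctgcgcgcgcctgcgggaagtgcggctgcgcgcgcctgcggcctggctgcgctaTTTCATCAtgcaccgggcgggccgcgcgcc
Aars: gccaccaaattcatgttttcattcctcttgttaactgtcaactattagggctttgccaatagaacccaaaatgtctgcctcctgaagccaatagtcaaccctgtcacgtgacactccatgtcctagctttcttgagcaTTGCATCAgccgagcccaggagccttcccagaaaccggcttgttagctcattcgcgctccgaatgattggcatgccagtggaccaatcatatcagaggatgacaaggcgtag
The matches begin 23, 139, 30 and 112 bases before the start sites, in that order. *Aars*, for alanyl-tRNA, had a small difference in spite of its match (228, 235, 238 and 199 against 146, 154 and 207 CPM, log2 fold change 0.41 ± 0.12, edgeR adjusted p = 0.0325), and its call was lost without av05, av06, av07, av14 or av15.

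Chaperone genes were higher in part. Of 17 heat shock and mitochondrial chaperone genes, 6 (35.3%, against 5.05% of all genes tested) were called higher and none lower by edgeR (also none lower at an unadjusted p below 0.05), with a median of 0.44. *Bag3*, a co-chaperone of HSP70, was at 68.2, 59.9, 72.7 and 49.8 against 28.6, 32.0 and 36.7 CPM (log2 fold change 0.95 ± 0.15, edgeR adjusted p = 0.000657). *Hspa9*, the mitochondrial HSP70, was at 1167, 1346, 1258 and 861 against 658, 840.3 and 791 CPM (log2 fold change 0.60 ± 0.12, edgeR adjusted p = 0.00484). The mitochondrial protease gene *Clpp* was higher too (log2 fold change 0.44 ± 0.11, edgeR adjusted p = 0.0147), a call lost without av16. *Lonp1*, another such protease, was called (log2 fold change 0.61 ± 0.18, edgeR adjusted p = 0.0363) but overlapped, and lost its call without av05, av06, av07, av14 or av16. Without av05, av07 or av14 the list had 3 members called. Of 26 genes of the unfolded protein response of the ER, 3 (11.5%) were called higher (none without av05, av06, av07 or av15 and 1 without av14), and the chaperone gene *Hspa5* was not (log2 fold change 0.55 ± 0.22, edgeR adjusted p = 0.109).

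In sulfur metabolism, where the diets differ in substrate, genes were called in either direction, 18.8% of those of the methionine cycle, 14.3% of those of cysteine breakdown and 25% of those of coenzyme A, against 10.4% of all genes tested. *Cbs*, for the step that makes cystathionine ahead of the missing enzyme, was at 369.8, 427, 381 and 403 against 224, 226 and 258 CPM (log2 fold change 0.74 ± 0.11, edgeR adjusted p = 0.000351), with every no-Cys liver above every no-Trp liver. Of 16 genes of the methionine cycle and transsulfuration, 2 were called higher and 1 lower, or 1 and none without av05, av06, av07, av14 or av16. *Cdo1*, the dioxygenase that begins cysteine breakdown, differed by −0.23 (adjusted p = 0.236). *Csad*, for taurine synthesis, spread widely at 119, 268, 242 and 45.5 against 58.3, 34.8 and 95.9 CPM (log2 fold change 1.42 ± 0.46, edgeR adjusted p = 0.0537), and of 14 genes of cysteine breakdown 1 was higher and 1 lower, of which none was left without av05, av06, av07 or av14, and no lower one without av15. Without av08 there were 2 higher and 2 lower. Of 20 genes of coenzyme A synthesis and breakdown none was called higher by edgeR (also none at an unadjusted p below 0.05 apart from *Coasy*, *Pank2* and *Ppcdc*) and 5 were lower, or 2 without av15 and 3 without av06, av07 or av14. None was called lower with only the 7 Cse-/- livers in the model, or at an adjusted p below 0.01. Among the 5 lower, *Pank3*, a pantothenate kinase, was at 57.7, 60.5, 58.3 and 68.2 against 71.4, 105 and 92.3 CPM (log2 fold change −0.55 ± 0.14, edgeR adjusted p = 0.0153; not called without av15). *Vnn3*, a pantetheinase, was at 98.2, 83.5, 85.8 and 104 against 127, 136 and 115 CPM (log2 fold change −0.44 ± 0.11, edgeR adjusted p = 0.0139; not called without av14). *Nudt19*, a CoA hydrolase, was at 36.1, 46.1, 42.7 and 44.2 against 61.3, 53.5 and 55.5 CPM (log2 fold change −0.43 ± 0.10, edgeR adjusted p = 0.012; not called without av14).

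Of 24 genes of tryptophan breakdown and NAD synthesis 2 were called higher (8.33%; 1 without any liver but av08) and 3 lower (12.5%), against 5.05% and 5.35% of all genes tested, with a median of −0.023. The members that kept their calls were genes of NAD salvage and of aromatic amines. *Nampt*, for the rate-limiting enzyme of NAD salvage, was at 93.1, 96.2, 105 and 107 CPM on the no-Cys and 166, 179.7 and 181 CPM on the no-Trp diet (log2 fold change −0.81 ± 0.13, edgeR adjusted p = 0.000757). *Nmrk1*, a nicotinamide riboside kinase, was at 25.8, 26.6, 28.8 and 42.4 against 60.8, 61.3 and 46.9 CPM (log2 fold change −0.87 ± 0.15, edgeR adjusted p = 0.00175). *Ddc*, for aromatic amino acid decarboxylase, was higher at 28.2, 23.2, 27.4 and 38.1 against 13.2, 18.7 and 12.4 CPM (log2 fold change 0.99 ± 0.21, edgeR adjusted p = 0.00579). *Nampt* was also lower on the no-Cys diet in Cse+/- livers (log2 fold change −0.63 ± 0.13, edgeR adjusted p = 0.00717), and its interaction of −0.18 ± 0.18 (edgeR adjusted p = 0.64) did not pass.

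Most cholesterol synthesis genes had fold changes of opposite sign in the genotypes. All 20 had a negative log2 fold change in Cse-/- livers (median −0.77), and 11 (55%, against 5.35% of all genes tested) were called lower. *Nsdhl* (chrX:72918557-72958514), a sterol dehydrogenase, was at 5.67, 11.3, 8.25 and 15.3 CPM on the no-Cys and 24.3, 20.2 and 35.8 CPM on the no-Trp diet (log2 fold change −1.42 ± 0.30, edgeR adjusted p = 0.00579). *Ebp*, a sterol isomerase, was at 112, 117, 104 and 147 against 218, 189.6 and 183 CPM (log2 fold change −0.72 ± 0.10, edgeR adjusted p = 0.000389). *Acat2*, which makes acetoacetyl-CoA, was at 20.4, 26.5, 24.1 and 27.6 against 45.8, 39.8 and 42.7 CPM (log2 fold change −0.80 ± 0.12, edgeR adjusted p = 0.000416; 36.8% of its 61-base stretches are shared). *Msmo1* (18.5, 53.8, 34.0 and 58.4 against 86.2, 63.5 and 107 CPM, log2 fold change −1.06 ± 0.32, edgeR adjusted p = 0.0414) and *Cyp51* (25.7, 53.3, 38.2 and 57.0 against 113, 67.6 and 131 CPM, log2 fold change −1.26 ± 0.31, edgeR adjusted p = 0.0164) did not overlap either, but lost their calls without av05, av14 or av16, and *Msmo1* without av07 too. The count of called members was 4 without av16, 5 without av05, 6 without av07 or av14 and 13 without av08, while the median stayed between −0.85 and −0.64.

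In Cse+/- livers 14 of the 20 were called higher on the no-Cys diet, against 4.63% of all genes tested, and none was called lower by edgeR, with a median of 1.06. The interaction was called lower for all 20, against 2.69% of all genes. *Nsdhl* was at 57.5, 53.6, 48.1 and 54.2 CPM on the no-Cys and 12, 13.8 and 16.7 CPM on the no-Trp diet there (log2 fold change 1.91 ± 0.30, edgeR adjusted p = 0.00126), and its interaction was −3.32 ± 0.42 (edgeR adjusted p = 0.000511). *Idi1*, an isoprenoid isomerase, was at 16.2, 24.7, 18.5 and 16.1 against 3.84, 3.67 and 4.86 CPM in Cse+/- and 2.01, 6.60, 2.85 and 7.67 against 8.03, 7.73 and 13.7 CPM in Cse-/- livers, with an interaction of −3.27 ± 0.62 (edgeR adjusted p = 0.00562). *Mvk*, mevalonate kinase, did not differ by test in Cse-/- livers (9.15, 14.2, 9.56 and 14.8 against 15, 16.4 and 13.5 CPM, adjusted p = 0.196) and was higher in Cse+/- livers (23.4, 25.8, 21.9 and 23.9 against 8.03, 9.67 and 7.89 CPM, adjusted p = 9.35e-05). For each of *Nsdhl*, *Idi1* and *Mvk*, the no-Cys livers of the Cse-/- mice lay below all no-Cys livers of the Cse+/- mice. On the no-Trp diet the order was the opposite, also without overlap.

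**Figure D4:**
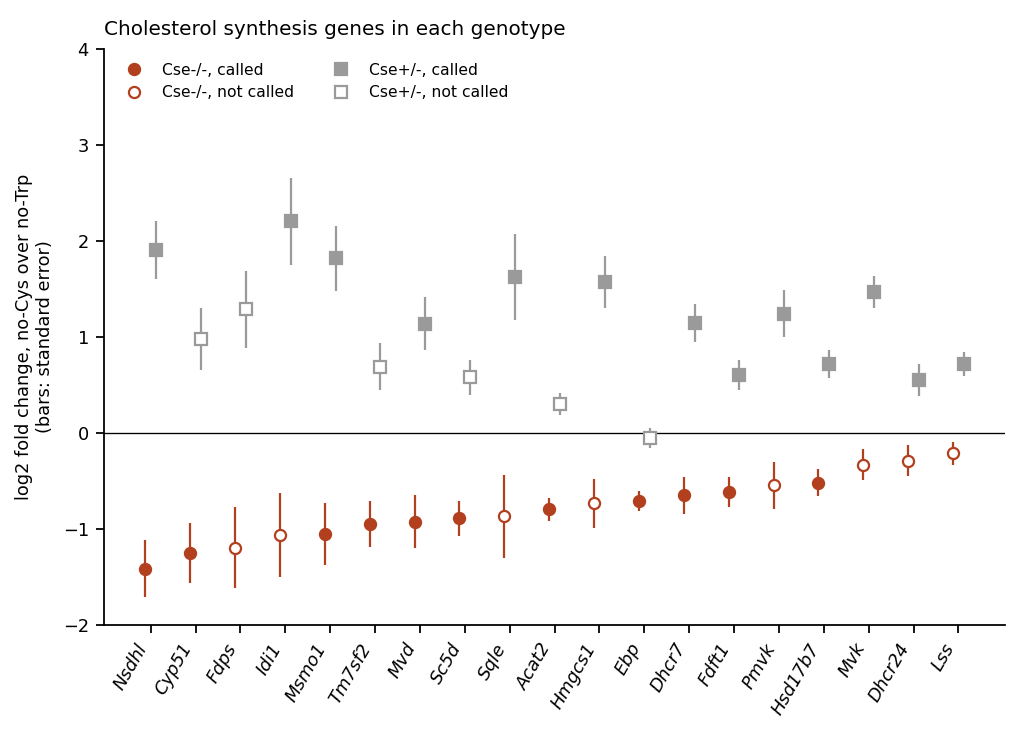
Log2 fold change, no-Cys over no-Trp, with its standard error for 19 of the 20 cholesterol synthesis genes in Cse-/- (red circles) and Cse+/- livers (grey squares), filled where called. All circles lie below 0 and all squares but that of *Ebp* above 0.

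Regulators of sterol and fatty acid synthesis followed in part. *Srebf1*, for the transcription factor SREBP1, was at 37.1, 73.7, 51.0 and 106 against 240.4, 117 and 166 CPM (log2 fold change −1.38 ± 0.29, edgeR adjusted p = 0.00541). *Insig1*, a sterol sensor and SREBP target, was at 57.5, 110.1, 80.6 and 125 against 223, 135 and 284 CPM (log2 fold change −1.20 ± 0.25, edgeR adjusted p = 0.00619). Both were called with every liver left out in turn, though not with only the 7 livers in the model. *Srebf2* did not pass (log2 fold change −0.29 ± 0.16, edgeR adjusted p = 0.239). Of 24 genes of sterol regulation and lipoprotein uptake 3 were called higher (12.5%, against 5.05% of all genes tested; 1 without av06, av14 or av16) and 5 lower (20.8%, against 5.35%). *Apoc1*, for an apolipoprotein, was at 1462, 1623, 1711 and 2121 against 4193, 2487 and 2956 CPM (log2 fold change −0.89 ± 0.17, edgeR adjusted p = 0.00375). *Vldlr* did not pass (10.7, 7.99, 12.7 and 13.5 against 6.17, 6.86 and 5.26 CPM, log2 fold change 0.89 ± 0.33, edgeR adjusted p = 0.09).

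Of 12 genes of fatty acid synthesis, 1 was called higher (none without av06, av14 or av16) and 1 lower (2 without av15) in Cse-/- livers, or 8.33% each way against 5.05% and 5.35% of all genes tested. In Cse+/- livers 6 were called higher, against 4.63% of all genes tested, and the interaction was lower for 5, against 2.69%. The one lower in Cse-/- livers was *Fads1*, the Δ5 desaturase gene, at 301, 306, 311 and 305 against 504, 528 and 583 CPM (log2 fold change −0.82 ± 0.15, edgeR adjusted p = 0.00283). *Scd1*, the stearoyl-CoA desaturase, varied from liver to liver on the no-Trp diet (228, 295, 258 and 694 against 132, 1809.7 and 872 CPM, log2 fold change −1.35 ± 0.63, edgeR adjusted p = 0.179). Its interaction was −4.02 ± 0.93 (edgeR adjusted p = 0.0186). *Fasn* was at 74.1, 90.2, 65.2 and 107 against 122, 70.7 and 144 CPM (log2 fold change −0.42 ± 0.21, edgeR adjusted p = 0.21). *Thrsp*, a lipogenic regulator, was lower (46.8, 85.3, 74.1 and 103 against 271, 190.4 and 346 CPM, log2 fold change −1.80 ± 0.44, edgeR adjusted p = 0.0147), a call lost without av05 or av16. *Lpin1*, a phosphatidate phosphatase and coactivator of fatty acid oxidation, was higher without overlap at 699, 689, 593 and 683 against 256, 297 and 227 CPM (log2 fold change 1.36 ± 0.30, edgeR adjusted p = 0.00859). Of 40 genes of PPARα, fatty acid oxidation and ketogenesis 4 (10%) were called lower and none higher by edgeR (1, *Ehhadh*, at an unadjusted p below 0.05), or 2 without av07 or av15, among them the electron transfer gene *Etfa* (log2 fold change −0.44 ± 0.089, edgeR adjusted p = 0.00484), and none with only the 7 livers in the model.

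Several genes that depend on pulses of growth hormone in male liver were lower on the no-Cys diet. Of 23 genes of the growth hormone axis 11 (47.8%, against 5.35% of all genes tested) were called lower and none higher by edgeR (none at an unadjusted p below 0.05), with a median of −0.56. *Ghr*, the receptor gene (chr15:3317760-3583492), was at 207, 202, 178 and 289 against 419, 394 and 383 CPM (log2 fold change −0.86 ± 0.15, edgeR adjusted p = 0.00175). The male-biased gene *Mup3*, of the major urinary proteins, was lower (2457, 2174, 2374 and 2182 against 6809, 3938 and 5390.2 CPM, log2 fold change −1.23 ± 0.19, edgeR adjusted p = 0.000589). *Hsd3b5*, a steroid enzyme gene, was at 23.6, 14.5, 15 and 30.5 against 143, 40.0 and 121 CPM (log2 fold change −2.28 ± 0.45, edgeR adjusted p = 0.00425). In these genes and in *Cyp2d9* (1029, 834, 695 and 925 against 1481, 1445 and 1317 CPM, log2 fold change −0.70 ± 0.14, edgeR adjusted p = 0.00386) every no-Cys liver was below every no-Trp liver. *Selenbp2* had the largest difference of these, at 7.14, 2.79, 2.23 and 9.37 against 165, 49.9 and 89.9 CPM (log2 fold change −4.24 ± 0.88, edgeR adjusted p = 0.00544), with 36.3% of its 61-base stretches shared with its paralogue.

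Other members of the axis rested more on single livers. *Bcl6*, for a transcriptional repressor, was at 11.2, 12, 30.5 and 11.3 against 106, 28.9 and 80.3 CPM (log2 fold change −2.14 ± 0.54, edgeR adjusted p = 0.0177), where av07 overlapped av15 and the call was lost without av05, av06 or av14. *Serpina4-ps1* (0.531, 0.513, 1.55 and 2.73 against 50.2, 2.93 and 17.3 CPM, log2 fold change −4.17 ± 0.87, edgeR adjusted p = 0.00562) and *Mup20* (465, 339, 275 and 427 against 1044, 609 and 824 CPM, log2 fold change −1.13 ± 0.26, edgeR adjusted p = 0.0101; 46.8% of 61-base stretches shared) were not called without av14. *Igf1* was at 465, 446, 510.2 and 453 against 655, 563 and 527 CPM (log2 fold change −0.31 ± 0.11, edgeR adjusted p = 0.0671). Without av14 the list had 6 members called lower and a median of −0.30, and av14 was also the liver with adipose RNA, whose part in this was not tested. In Cse+/- livers 2 of the 23 members were lower, against 3.41% of all genes tested, and the median was −0.077. The interaction was higher for 1, *Cish* (2.57, edgeR adjusted p = 0.00618), against 1.67% of all genes tested. It was lower for 6, against 2.69%, including *Ghr* at −1.19 ± 0.22 (edgeR adjusted p = 0.00436).

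**Figure D5:**
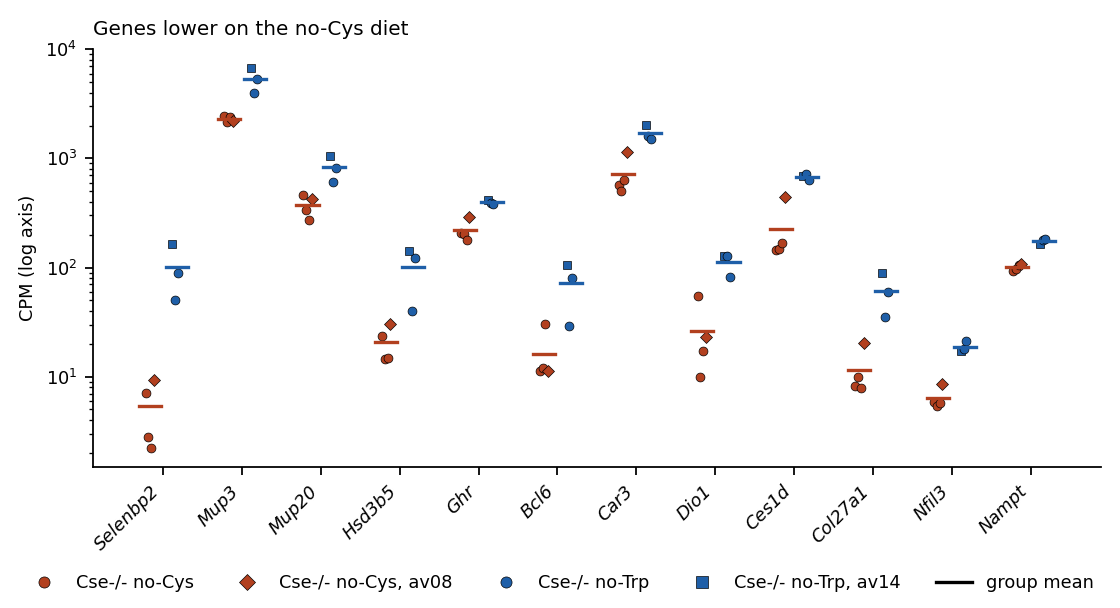
CPM (log axis) in each of the 7 Cse-/- livers for genes lower on the no-Cys diet, with the group mean as a bar. The diets overlap in *Bcl6* and in no other gene shown, and *Selenbp2*, *Bcl6* and *Dio1* spread over several-fold within a diet.

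Of 59 drug- and steroid-metabolizing genes 4 were called higher (6.78%), near the 5.05% of all genes tested, and 9 lower (15.3%, against 5.35%). *Cyp2a5*, a coumarin hydroxylase, was higher at 3033, 4916, 5058 and 4375 against 1769.7, 1191 and 1518 CPM (log2 fold change 1.54 ± 0.21, edgeR adjusted p = 0.000267; 29.4% of 61-base stretches shared), and its interaction was 1.79 ± 0.29 (edgeR adjusted p = 0.00221). The carboxylesterase genes *Ces3a* (729, 750.5, 662 and 689 against 1766, 1217 and 1432 CPM, log2 fold change −1.06 ± 0.15, edgeR adjusted p = 0.000403) and *Ces1d* (146, 149, 168 and 446 against 685, 721 and 639.7 CPM, log2 fold change −1.59 ± 0.31, edgeR adjusted p = 0.00376) were lower, with av08 nearest the no-Trp livers in *Ces1d*. *Papss2*, which makes the sulfate donor PAPS, was lower as well (132, 123, 125 and 156 against 186, 273 and 205 CPM, log2 fold change −0.72 ± 0.14, edgeR adjusted p = 0.00362). The count of lower members was 21 without av08, 5 without av14 and 4 without av06 or av07, and that of higher members 1 without av06 or av15 and 2 without av05, av07 or av16. Of 21 genes of bile acid synthesis and transport, 3 were higher (14.3%; 1 without av14) and 4 lower (19%; 1 without av05, av07, av14 or av16 and 2 without av06). *Acox2*, for a bile acid side-chain oxidase, was higher at 270.4, 226, 234 and 288 against 94.5, 171 and 99.1 CPM (log2 fold change 1.07 ± 0.21, edgeR adjusted p = 0.00414).

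Several selenoprotein and clock genes were among the calls. *Dio1*, the liver deiodinase, was at 54.4, 9.90, 17.1 and 23.1 against 126, 128 and 82.0 CPM (log2 fold change −2.10 ± 0.48, edgeR adjusted p = 0.00972), with no overlap although the no-Cys livers spread over more than 5-fold. *Msrb1*, a methionine sulfoxide reductase, was at 319, 332, 308 and 361 against 555, 461 and 459 CPM (log2 fold change −0.58 ± 0.12, edgeR adjusted p = 0.00445). In all, 2 of 20 selenoprotein genes were higher (10%; 1 without any liver but av05) and 3 lower (15%), against 5.05% and 5.35% of all genes tested. Of 19 clock genes 1 was higher (5.26%; none without av14 and 2 without av08) and 6 lower (31.6%). *Nfil3* (5.84, 5.35, 5.77 and 8.49 against 17.3, 17.8 and 21.1 CPM, log2 fold change −1.56 ± 0.24, edgeR adjusted p = 0.000649) and *Cry1* (6.43, 9.24, 6.02 and 7.16 against 14.8, 12.5 and 18.4 CPM, log2 fold change −1.09 ± 0.20, edgeR adjusted p = 0.00199) were lower in every no-Cys liver. *Nfil3* (−1.34, adjusted p = 0.00229) and *Cry1* (−0.69, adjusted p = 0.0301) were lower on the no-Cys diet in Cse+/- livers too. *Hlf* and *Per3*, by contrast, were lower in Cse-/- livers (−0.63 and −0.69), with log2 fold changes of 0.43 and 0.62 in Cse+/- livers and interactions of −1.06 (adjusted p = 0.00436) and −1.30 (adjusted p = 0.00407). *Per3* was not called without av14. No source used here gives the hour at which each liver was taken, so its part in these differences was not tested.

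Some respiratory subunits were slightly lower on the no-Cys diet, in a number that depended on which livers entered the model. Of 74 nuclear-encoded subunits 20 (27%, against 5.35% of all genes tested) were called lower and none higher by edgeR (none at an unadjusted p below 0.05), and 69 were negative, with a median of −0.23. *Uqcrb*, of complex III, was at 79.4, 86.2, 92.6 and 82.9 against 154, 118 and 113 CPM (log2 fold change −0.59 ± 0.13, edgeR adjusted p = 0.00679). *Atp5k*, of ATP synthase, was at 95.4, 104, 114 and 103 against 235, 148 and 151 CPM (log2 fold change −0.77 ± 0.21, edgeR adjusted p = 0.0252), each with av14 the highest. Without av14 none of the 74 was called and the median was −0.16, without av05 3 were called, without av06 or av07 7, and with only the 7 livers in the model 2. Of 11 mitochondrially encoded genes 4 (36.4%, against 5.35% of all genes tested) were lower, or 1 without av14 and 7 without av16. The share of 61-base stretches also found in another gene was 99.5% for *mt-Atp6*, 61.9% for *mt-Nd4*, 7.06% for *mt-Nd2* and 0% for *mt-Cytb*, the 4 called. In Cse+/- livers 3 of the 11 were called higher, against 4.63% of all genes tested, and none lower by edgeR. Adipocyte markers summed to 519 to 1160 CPM on the no-Cys and 1510 to 2070 CPM on the no-Trp diet, most of it *Car3*, which liver also expresses (566, 507, 629.6 and 1156 against 2021, 1599 and 1496 CPM). Their part in the result was not tested.

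Of 8 hepatocyte markers 3 (37.5%, against 5.35% of all genes tested) were called lower on the no-Cys diet, and they summed to 47700, 50500, 46600 and 76500 CPM there against 76000, 78000 and 72700 CPM on the no-Trp diet. Most of each sum comes from 1 marker, and 3 of the 8 had a positive log2 fold change. In the sum, all no-Cys livers but av08 thus lay below every no-Trp liver. Kupffer cell and macrophage markers (11 genes, none called) summed to 325 to 382 CPM on the no-Cys and 363 to 473 CPM on the no-Trp diet, endothelial markers (8, none called) to 214 to 241 and 241 to 242 CPM, and stellate cell markers (8, none called) to 224 to 270 and 204 to 246 CPM. Red cell markers, 3 of 5 tested called lower, summed to 69.1 to 114 against 119 to 184 CPM. Cholangiocyte markers summed to 16.8 to 29.4 against 28.1 to 46.8 CPM, with *Spp1* lower (log2 fold change −0.98 ± 0.19, edgeR adjusted p = 0.00411). Of 10 pancreas markers 7 were at 0 in all 7 livers, and of 8 muscle markers 4. In such bulk samples fewer cells of a type and less RNA per cell cannot be told apart, and the part of these markers in the gene lists was not tested.

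Among the largest differences were genes outside the pathway lists. *Col27a1*, a fibrillar collagen gene, was at 8.20, 9.83, 7.94 and 20.3 against 89.5, 35.1 and 59.8 CPM (log2 fold change −2.42 ± 0.33, edgeR adjusted p = 0.00022), and its interaction was −2.83 ± 0.46 (edgeR adjusted p = 0.00221). *Dlec1* was lower (2.95, 2.05, 1.18 and 0.812 against 13.1, 16.4 and 6.46 CPM, log2 fold change −2.75 ± 0.45, edgeR adjusted p = 0.000839). So was *Nrep* (14.6, 12.1, 10.8 and 22.4 against 102, 46.2 and 70.0 CPM, log2 fold change −2.28 ± 0.52, edgeR adjusted p = 0.00946), which was not called without av14. *Car1*, a carbonic anhydrase gene also used by red cells, was lower without overlap (0.59, 0.733, 0.248 and 2.07 against 7.73, 5.05 and 3.40 CPM, log2 fold change −2.61 ± 0.41, edgeR adjusted p = 0.000636). The cytokine gene *Il1b* was low in both groups and lower on the no-Cys diet (0.236, 0.733, 0.559 and 0.369 against 2.59, 2.24 and 3.52 CPM, log2 fold change −2.57 ± 0.34, edgeR adjusted p = 0.000187), as in Cse+/- livers (−1.80, adjusted p = 0.00314). *Vtcn1*, for an immune checkpoint ligand, was higher (1.65, 1.54, 1.80 and 1.33 against 0.216, 0.249 and 0.539 CPM, log2 fold change 2.19 ± 0.43, edgeR adjusted p = 0.00376), as was the long noncoding RNA *Gm19619* (12.9, 9.31, 12.4 and 7.08 against 1.55, 1.43 and 1.91 CPM, log2 fold change 2.67 ± 0.24, edgeR adjusted p = 4.18e-06). *Ucp1*, the uncoupling protein gene of brown fat and one of the adipocyte markers, had 0 counts on the no-Cys and 73 on the no-Trp diet, nearly all in av14, at least 23.1-fold lower by the floor of 3 counts over the group, and its call was lost without any one of the no-Cys livers. This bound rests on av14, the liver with adipose RNA, at 3.02 CPM, against 0 CPM in av15 and 0.124 CPM in av16.

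In the remaining lists the share called in either direction ran from 3.7% for acute-phase proteins to 25% for iron handling and 29.6% for thioredoxins, peroxiredoxins and NADPH enzymes, against 10.4% of all genes tested. Of 44 genes of amino acid catabolism and the urea cycle, 1 was higher and 3 lower, with *Prodh2*, of hydroxyproline breakdown (log2 fold change −0.56 ± 0.12, edgeR adjusted p = 0.00543), and *Bckdhb*, of branched-chain amino acid breakdown (log2 fold change −0.46 ± 0.10, edgeR adjusted p = 0.00985), among them. Amino acid transporters had 3 of 27 higher, gluconeogenesis and glycolysis 2 of 25 higher, iron handling 3 higher and 1 lower of 16, iron-sulfur cluster assembly 1 higher and 2 lower of 21, and metallothioneins and zinc transporters 1 of 10 lower. Thioredoxins, peroxiredoxins and NADPH enzymes had 5 higher and 3 lower of 27, lipogenic regulators 1 higher and 2 lower of 26, hepatokines 2 higher and 1 lower of 19, acute-phase proteins 1 of 27 lower, p53 targets 1 higher and 1 lower of 17 and mTORC1 control 1 of 22 higher. Such small counts moved as livers were left out: for amino acid catabolism to 5 higher without av15 and 10 lower without av08, for amino acid transporters to 1 without av14 or av16, for thioredoxins to 1 higher without av14, 2 without av06 or av16 and 3 without av07, for iron handling to 5 higher without av15 and for acute-phase proteins to 4 without av08. Hepatokines fell to 0 higher without av06, av07 or av14, and iron-sulfur genes to 0 lower without av05, av06, av07 or av14. Gluconeogenesis and glycolysis rose to 4 higher without av15, and amino acid transporters to 5 without av08.

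The coding sequences of the called genes were compared with those of all genes tested, as a description. Cysteine codons made up a median of 1.92% of codons (interquartile range 1.25% to 2.76%) over 12617 of 14759 genes with a coding sequence, 1.67% (1.10% to 2.29%) over 683 of the 746 genes called higher and 2.04% (1.27% to 3.03%) over 722 of the 789 called lower. Tryptophan codons made up 1.09%, 1.07% and 1.16%. In the ISR genes cysteine codons made up 1.29% and in the OSR genes 1.26%. Other lists with many higher calls lay near all genes, with 1.92% for NRF2 genes and 1.91% for synthetases. Glutathione synthesis and breakdown had 1.99%, and the drug- and steroid-metabolizing genes, with few higher calls, 1.42%. Tryptophan codons made up 1.74% in the OSR and 1.05% in the ISR genes.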

How the data were processed

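Liver RNA (poly(A), NEBNext Ultra libraries) was sequenced from 20 mice used here. The authors deposited raw read counts per gene, made with HISAT2 2.1.0 and HTSeq 0.11.0 on GRCm38. No source used here gives the strand setting of the counting, so reads of a gene and of an overlapping antisense gene cannot be told apart. Columns were tied to groups through the study's list of mice; 1 of 21 columns is in no group there and was not used. The design had foreseen expected counts and protein sequences; the table held whole counts, and codon shares were used. Genes were filtered with filterByExpr (at least 10 counts, 15 in total) and fitted with the quasi-likelihood test of edgeR 4.0.16 (R 4.3.3) over all 20 libraries, 1 mean per group, TMM factors and Benjamini-Hochberg adjustment at 0.05. CPM are TMM-scaled. No source used here gives the litter or batch of each mouse, so p-values measure the spread between these livers. The members and gene lists were chosen with earlier results of these data known. Genes were named by a written rule, the largest called differences and the called members of each list, with some genes added after their values were seen. Alternatives were DESeq2 1.42.0, RLE and upper-quartile factors, other filters, only the compared groups, thinned counts and each liver left out. Scripts were tested on simulated data.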

Additional observations from a re-analysis of the deposited data

Results flagged for a closer look

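In the no-Cys group of 4 livers, 11 of 133 values examined (8.27%) had 1 liver far from the others by Dixon's test, where chance gives about 1 in 20; groups of 3 livers were not tested. The liver was av08 in 7 cases. It was the highest for *Ces1d* (446 CPM), *Col27a1* (20.3 CPM), *Cth* (13.3 CPM), *Nfil3* (8.49 CPM) and *Scd1* (694 CPM), and the lowest for *Gars* (96.0 CPM) and *Psat1* (33.8 CPM). The liver was av07 in the other 4, as the highest for *Abcc4* (21.5 CPM), *Bcl6* (30.5 CPM) and *Ddit3* (15.8 CPM) and the lowest for *Lpin1* (593 CPM). No cause was tested for either liver.

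The test of the difference between genotypes (the interaction, edgeR adjusted p below 0.05) was called for 69 of the 130 genes examined here, 40 higher and 29 lower, against 1.67% and 2.69% of all genes tested. Most of these genes were chosen for their difference in Cse-/- livers, which enters the interaction, so the share called is raised by that choice. The values that follow are log2 fold changes, the no-Cys over no-Trp difference in Cse-/- minus that in Cse+/- livers, so that a value above 0 can come from a higher level on the no-Cys diet in Cse-/- livers or a lower one in Cse+/- livers. For *Hmox1* the log2 fold changes were 0.056 and −1.04 in the respective genotypes, and for *Hspa5* 0.55 and −0.58. Among OSR and NRF2 genes the interaction was 1.58 for *Srxn1*, 1.74 for *Nqo1*, 1.97 for *Gstm1*, 1.22 for *Gstm2*, 2.44 for *Gstm3*, 1.20 for *Gstm4*, 1.72 for *Gsta2* and 2.05 for *Gstm2-ps1*. Among the other genes of this system it was 1.41 for *Cbr1*, 3.52 for *Cbr3*, 1.29 for *Ephx1*, 1.5 for *Htatip2*, 1.10 for *Aox1*, 1.74 for *Abcc4*, 0.95 for *Sqstm1*, 0.84 for *Fth1*, 0.72 for *Ftl1* and 1.09 for *Hmox1*. Genes of glutathione gave 0.67 for *Gss*, 1.01 for *Gsr* and 0.58 for *Gpx4*. Genes of the ISR and of serine and folate metabolism, with *Pck2* of gluconeogenesis and the p53 target *Cdkn1a*, gave 3.50 for *Psat1*, 4.10 for *Phgdh*, 2.91 for *Mthfd2*, 4.16 for *Aldh1l2*, 3.29 for *Pck2*, 1.57 for *Atf5*, 1.24 for *Slc3a2*, 3.03 for *Chac1*, 0.84 for *Eif4ebp1* and 4.51 for *Cdkn1a*. For synthetases and chaperones the value was 0.92 for *Gars*, 0.74 for *Vars*, 0.84 for *Sars*, 1.13 for *Hspa5*, 0.82 for *Hspa9* and 0.66 for *Clpp*. Further values above 0 were 1.79 for *Cyp2a5*, 2.57 for *Cish* and 2.78 for *Gm19619*. On the other side were the genes of cholesterol synthesis, with −3.32 for *Nsdhl*, −3.27 for *Idi1*, −2.87 for *Msmo1*, −2.23 for *Cyp51*, −1.80 for *Mvk*, −1.10 for *Acat2* and −0.66 for *Ebp*. Their regulators and the desaturase and fatty acid synthase genes gave −1.98 for *Srebf1*, −0.93 for *Srebf2*, −2.05 for *Insig1*, −4.02 for *Scd1*, −1.19 for *Fads1* and −1.51 for *Fasn*. Genes of the growth hormone axis gave −1.19 for *Ghr*, −1.26 for *Mup3*, −2.81 for *Hsd3b5*, −0.69 for *Cyp2d9*, −4.59 for *Selenbp2* and −3.21 for *Bcl6*. The remaining called values, all below 0, were −3.30 for *Car1*, −2.19 for *Car3*, −0.92 for *Ces3a*, −2.83 for *Col27a1*, −1.06 for *Hlf*, −0.68 for *Nfe2l2*, −0.87 for *Pank3*, −1.02 for *Papss2*, −1.30 for *Per3* and −0.59 for *Prodh2*.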

How the results depend on the processing

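No paired analysis was possible because the columns of the counts carry mouse numbers and not the replicate numbers of the labels. The study drew on littermates in part, but no source used here says which of these mice shared a litter, day or batch.

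The counts of called genes depended on the spread used. With only the compared groups in the model, 248 genes were higher and 273 lower in Cse-/- livers, 335 and 245 in Cse+/- livers, and 145 and 230 in the interaction. At an adjusted p below 0.01 these were 236 and 231, 192 and 137, and 60 and 100. DESeq2 gave 467 higher in the interaction and left 1433 genes without an adjusted p in the Cse-/- comparison. Leaving out 1 liver in turn gave 314 to 857 higher and 369 to 998 lower in Cse-/- livers, 332 to 705 and 256 to 624 in Cse+/- livers, and 134 to 476 and 201 to 674 in the interaction.

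List medians (log2) that moved by more than 1 SD (of the mean log2 CPM of the list between livers of a diet) without both av08 and av14, a choice made after seeing the data, were 1.72 for ISR genes, 0.35 for NRF2 genes, 0.42 for glutathione transferases, −0.029 for serine and one-carbon enzymes, 0.074 for iron handling, −0.12 for tryptophan and NAD, −0.38 for cytochrome P450, −0.27 for the growth hormone axis, −0.58 for acute-phase proteins and −0.020 for mTORC1 control. With 1 liver left out in turn, medians that moved by as much ran from 0.40 to 0.52 for NRF2 genes, 0.30 to 0.38 for glutathione, −0.10 to 0.030 for cysteine breakdown, −0.065 to 0.048 for iron handling, −0.072 to 0.050 for iron-sulfur clusters, −0.11 to 0.042 for sterol regulation, −0.62 to −0.30 for the growth hormone axis, 0.011 to 0.15 for mTORC1 control and −0.16 to −0.043 for selenoproteins. Of the medians that stayed within 1 SD, the widest ranges were 0.86 to 1.44 for ISR genes, −0.50 to 0.059 for acute-phase proteins, −0.58 to −0.28 for mitochondrially encoded genes, 0.14 to 0.44 for ISR regulators and 0.028 to 0.30 for the ER unfolded protein response; that of tryptophan and NAD genes ran from −0.095 to −0.0023. With 1 liver left out, the log2 fold change of *Atf4* ran from −0.063 (av15), a reversal, to 0.40 (av14), and it was 0.54 without both av08 and av14. The cause was not tested.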
